A study of Caenorhabditis elegans with 27 samples.

Results

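The genes described here lie on the arms of Caenorhabditis elegans chromosome V and are of middle length. They start before 5.9 Mb or beyond 16.55 Mb of the chromosome, as the deposited gene coordinates place them. They span at least 600 bp and less than 15000 bp from start to stop and reached at least 1 TPM (transcript abundance per unit of library and length) in at least 2 of 27 RNA-seq libraries. Of 2129 arm genes in this span range 1097 met the rule, 706 on the left arm and 391 on the right arm, among 14271 genes tested and 20390 listed. They were set against the 1686 of 2565 centre genes of chromosome V in the same span range that met the same TPM rule. The limits stand at 28.2% and 79.1% of the chromosome.

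Poly(A) RNA of whole larvae was sequenced in 4 strains, with and without 1 mM auxin (indole-3-acetic acid). The auxin-inducible degron is a tag that the plant protein TIR1, together with auxin, sends to the proteasome. The TOP-1 strain (AM05, top-1::degron::GFP) carries the tag on topoisomerase I, the TOP-2 strain (SS01A, top-2::degron::GFP) on topoisomerase II, and the DPY-27 strain (AM01, dpy-27::degron::GFP) on a subunit of condensin DC. CA1200, which is listed with no tagged protein, was the control strain. Each was sampled after 30, 60 and 120 min on auxin plates and without auxin (0 min), except that the DPY-27 strain was sampled at 120 and 0 min only. Larvae were L2/L3, hatched into starvation and grown for 24 h at 22 °C, except that the second library of the DPY-27 strain at each time was of mixed larval stages. Each of the 14 groups had 2 libraries, apart from CA1200 at 60 min with 1. The promoter and tissue of TIR1 expression are not given in the labels, and the libraries measure RNA, so the loss of the tagged proteins was not measured here.

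C. elegans autosomes have gene-dense centres with little meiotic crossing over, and arms where crossing over is frequent, repeats are common and many gene families are found. Chromosome V is known for its many genes of chemoreceptors, nuclear hormone receptors, F-box proteins and detoxification enzymes. Topoisomerases I and II relax the supercoils that build up around a moving RNA polymerase. Topoisomerase I cuts a single DNA strand, topoisomerase II cuts both. The comparison of arms with the centre sets genes of like length in the 2 kinds of chromosome domain side by side in each strain.

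The arm genes were detected less often and at lower levels than those of the centre. They met the TPM rule in 51.5% of cases, against 65.7% in the centre, and 219 arm genes and 126 centre genes in the span range were listed at 0 in every library. The median TPM of the arm genes was 54.8% to 82.2% of that of the centre genes, lower in all 27 libraries. The median span was 2343 bp on the arms and 2068 bp in the centre, and genes of the symbol families listed for this study made up 23.8% of the arm genes and 15.4% of the centre genes. 550 arm genes stood at 1 TPM or more in every library. Levels are given below as scaled TPM, the deposited TPM divided by a median-ratio factor per library, and changes as differences of log2(scaled TPM + 1).

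The most abundant arm genes were rpl-2 and rps-27, which encode proteins of the large and the small ribosomal subunit, asp-1, an aspartyl protease of the intestine, dct-16 and hpo-18. Across all libraries rpl-2 averaged 6148 and hpo-18 1081 scaled TPM. rpl-2 had 7390 and 6995 scaled TPM after 120 min of auxin in the TOP-1 strain, against 6593 and 6086 at 0 min. None of these 5 genes passed the test after 120 min in that strain, with or without the replicate block, and their log2 changes lay between -0.35 for dct-16 and 0.19 for rps-27.

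6 libraries stand apart, replicate 1 of the TOP-2 and DPY-27 strains at each of their times. They hold an estimated 5.69 to 9.31 M fragments, against 11.49 to 21.1 M in the other 21, and 957 to 1008 arm genes at 1 TPM or more, against 701 to 835. Without those 6 libraries, 157 of the 1097 arm genes would miss the TPM rule. Intestine, hypodermis, body wall muscle and neuron marker lists were all expressed, while all 8 sperm markers stayed below 1 scaled TPM in every library. In whole worms, fewer cells of a type and less RNA per cell cannot be told apart. The labels do not say whether replicates came from separate cultures, so p-values measure the spread between these libraries, which may be technical.

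In the TOP-1 strain the arm genes had a lower median change with auxin than the centre genes. After 30 min their median log2 change was 0.00 on the arms and 0.09 in the centre, after 60 min 0.02 and 0.13, and after 120 min 0.10 and 0.19. The arm median minus the centre median was -0.08 at 30 min, -0.11 at 60 min and -0.09 at 120 min. It was negative in every replicate pair, at -0.12 in pair 1 and -0.09 in pair 2 after 120 min. The median of all 14271 tested genes at 120 min was 0.04, so both groups lay above it. Of the arm genes 57.2% had a change above 0, against 65.3% of the centre genes. On chromosomes I to IV the arm limits were set at the fractions of chromosome V, 28.2% and 79.1%, not at limits of their own. With 3221 arm and 5154 centre genes, the same medians were -0.13 on the arms and 0.02 in the centres, a difference of -0.15. No test was run on these differences of medians.

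In the TOP-2 strain the arm median minus the centre median was 0.03, 0.03 and -0.05 at 30, 60 and 120 min, with -0.04 in each of the 120 min pairs. In the DPY-27 strain it was -0.02 at 120 min. In CA1200 it was 0.03 at 30 min, -0.01 at 60 min and 0.02 at 120 min, and the sign differed between the 120 min pairs, at 0.06 and -0.02. Gene by gene, the TOP-1 change minus the CA1200 change at 120 min had a median of -0.01 on the arms and 0.15 in the centre, a difference of -0.15 with -0.23 in pair 1 and -0.09 in pair 2.

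**Figure D1:**
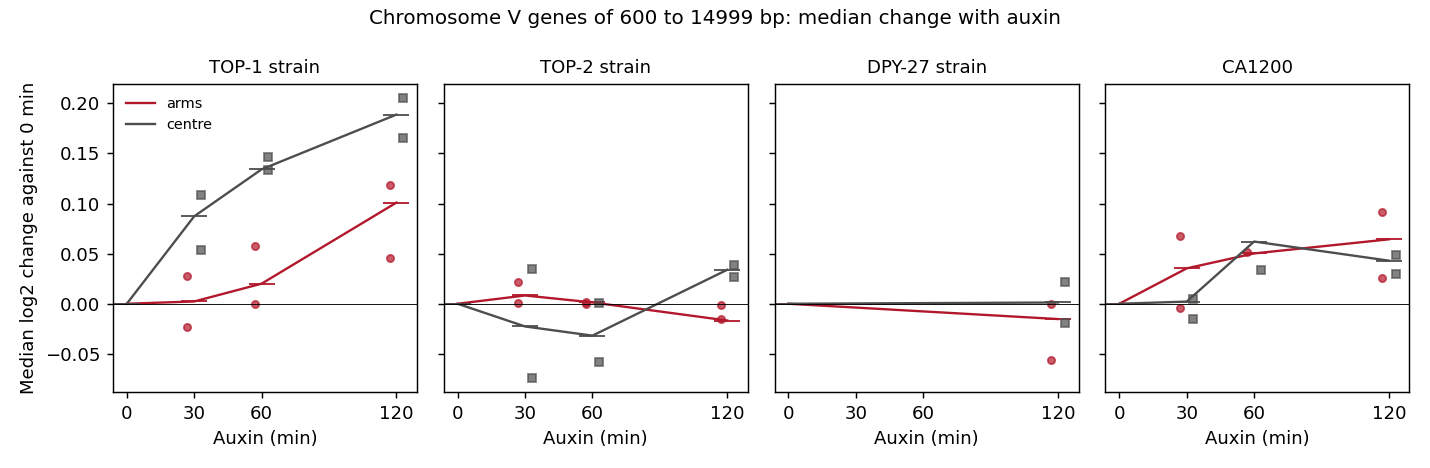
Median log2 change against 0 min (y axis) of chromosome V arm genes (red) and centre genes (grey) by minutes of auxin (x axis) in each strain; dashes joined by lines are medians of the fitted changes and points are medians within a replicate pair. In the TOP-1 strain the centre reaches 0.19 and the arms 0.10 at 120 min, while the other strains stay within 0.10 of 0.

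At the level of single genes, 42 arm genes passed the test in the TOP-1 strain after 120 min of auxin, 23 higher and 19 lower (limma, Benjamini-Hochberg adjusted p under 0.05). These are 3.83% of the arm genes, against 1.94% of all tested genes, 0.827% higher and 1.11% lower. In the centre 17 genes were higher and 2 lower. With the replicate block, which compares libraries of the same replicate series, 172 arm genes were higher and 127 lower, 27.3% of the arm genes against 23% of all tested genes. By direction 15.7% of the arm genes were higher, against 11.44% of all tested genes, and 11.6% were lower, against 11.54%, so the lower share was near the background. In the centre 318 genes were then higher and 76 lower. All 42 genes were among those 299. Each of the 42 met the TPM rule also without the libraries of the group in which it was high, and of the 172 higher with the block 3 did not. Without the 6 libraries that stand apart 53 were higher and 38 lower, against 2.03% and 2.38% of all tested genes. The count without the block rested on both replicates: it was 6 without replicate 1 and 3 without replicate 2 of the 0 min group, and 4 without replicate 1 and 21 without replicate 2 of the 120 min group. With the TPM as deposited, unscaled, 0 were higher and 2 lower.

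At 60 min 6 arm genes were higher and 10 lower, 1.46% of the arm genes against 0.603% of all tested genes, 0.147% higher and 0.455% lower. With the block these counts were 108 and 92, 18.2% of the arm genes against 14.7% of all tested genes, 6.59% higher and 8.07% lower. Leaving out any 1 of the 4 TOP-1 libraries at 0 and 60 min left 0, and without the 6 libraries that stand apart 18 were higher and 13 lower. At 30 min limma without the block called 0, against 0.00701% of all tested genes. In that fit 91 arm genes had an unadjusted p under 0.05, against 920 of all tested genes. With the block 26 were higher and 32 lower, 5.29% of the arm genes against 4.89% of all tested genes, 1.74% higher and 3.15% lower.

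The 2 directions differed in place and length. Of all 1097 arm genes 706 lie on the left arm and 391 on the right. By span, 689 of the 1097 are under 3000 bp and 189 reach 5000 bp or more. Of the 23 genes that were higher at 120 min 21 lie on the left arm, and their median span is 1760 bp. Of the 19 that were lower 17 lie on the right arm, and their median span is 6489 bp, with 13 of them spanning 5000 bp or more. Among the genes called with the block, 137 of 172 higher ones lie on the left arm and 148 span less than 3000 bp, and of 127 lower ones 64 lie on the left arm and 63 on the right, and 65 span 5000 bp or more. At 120 min the same 23 and 19 genes had median changes of 0.32 and -0.26 in the TOP-2 strain and of 0.57 and -0.25 in CA1200, where 22 of the 23 were above 0 and all 19 below 0.

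In the TOP-1 strain the median change of the arm genes was lower in longer genes, beyond the 2 shortest of 5 span classes. The median log2 change at 120 min was 0.28 from 600 to under 1200 bp, 0.29 to under 2000 bp, 0.19 to under 3000 bp, 0.02 to under 5000 bp and -0.31 from 5000 to under 15000 bp. The centre genes had 0.28, 0.29, 0.23, 0.07 and -0.06 in the same classes. The longest class had a median span of 7254 bp on the arms and 7249 bp in the centre. In it the replicate pairs gave -0.41 and -0.23 on the arms, against -0.17 and 0.00 in the centre. 13 of 189 arm genes of this class were lower and 1 was higher, and with the block 65 were lower and 4 higher, against 23 lower and 7 higher centre genes with the block. The medians of this class were similar earlier, at -0.32 at 30 min and -0.35 at 60 min on the arms, against -0.10 and -0.10 in the centre. Within it the right arm had a median of -0.46 over 91 genes and the left arm -0.26 over 98. At 120 min the longest class had a median of -0.14 on the arms and -0.11 in the centre in the TOP-2 strain, and of 0.00 and -0.04 in CA1200.

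**Figure D2:**
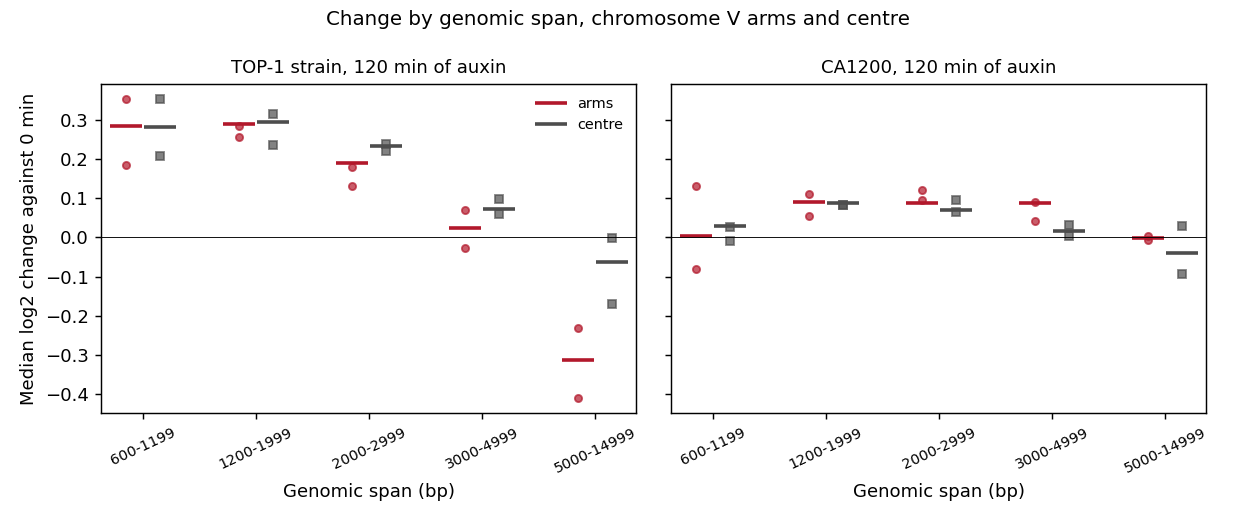
Median log2 change after 120 min of auxin (y axis) in 5 classes of genomic span (x axis, bp) for arm genes (red) and centre genes (grey), in the TOP-1 strain (left) and CA1200 (right); dashes are medians of the fitted changes and points are medians within a replicate pair. Arm genes of 5000 bp or more stand at -0.31 in the TOP-1 strain, against -0.06 in the centre, and both near 0 in CA1200.

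The changes also differed by level. Arm genes with a mean of 10 to 30 scaled TPM over all 27 libraries had a median change of -0.13 after 120 min in the TOP-1 strain, and those above 30 one of -0.15, while centre genes of these levels had 0.18 and 0.11. Arm genes of 1 to 3 scaled TPM had 0.32, against 0.26 in the centre. Span and level were not separated from each other here.

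Many of the genes that rose in the TOP-1 strain lie close together on the left arm, between 3.25 and 3.41 Mb. This stretch was picked after the changes were seen and holds 39 of the arm genes, 22 on the plus strand and 17 on the minus strand, with a median span of 1310 bp. At 120 min 37 of the 39 had a change above 0, their median was 1.06, 13 were called higher without the block and 28 with it. Of all tested genes 0.827% and 11.44% were higher in these fits. The median of the 39 was 0.37 at 30 min and 0.62 at 60 min. At 120 min it was 0.02 in the TOP-2 strain, -0.08 in the DPY-27 strain and 0.07 in CA1200. In these strains 0 of the 39 were called with or without the block. Of all tested genes few were called there too. Without and with the block they were 0 and 0 in the TOP-2 strain, 0.0491% and 0.126% in the DPY-27 strain, and 0.00701% and 2.24% in CA1200. Their median level was 6.46 and 4.39 scaled TPM after 120 min in the TOP-1 strain, against 2.13 and 1.00 at 0 min, and 1.99 and 2.997 after 120 min in CA1200, against 1.37 and 1.77 at 0 min. What these genes encode is mostly not given by their symbols, and several, among them T20D4.17, arrd-21 and arrd-20, are annotated as pseudogenes.

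T20D4.12, at 3397061 to 3397786 on the plus strand, had the largest rise of the arm genes called without the block. In the TOP-1 strain it stood at 5.14 and 4.72 scaled TPM at 0 min, 9.09 and 10.1 at 30 min, 17.9 and 18.2 at 60 min, and 46.8 and 64.9 at 120 min. It stood at 10.6 and 9.04 scaled TPM in the TOP-2 strain after 120 min, against 9.502 and 3.13 at 0 min, and at 5.99 and 3.86 in CA1200 after 120 min, against 2.395 and 3.525 at 0 min. Both TOP-1 libraries at 120 min lay above every other library of the 4 strains. The log2 change was 3.24 ± 0.38 (SE from the fit of all 27 libraries, here and below, n = 2 and 2 in the groups, adjusted p = 0.00273). Its next neighbours on the same strand are T20D4.11 and T20D4.10. T20D4.11 had 63.4 and 68.1 scaled TPM after 120 min in the TOP-1 strain, against 14.7 and 20.1 at 0 min, a log2 change of 1.88 ± 0.31 (adjusted p = 0.00982). T20D4.10 had 32.5 and 48.0, against 8.16 and 12.8, which passed the test only with the block (adjusted p = 0.00256, or 0.0800 without). On the opposite strand T20D4.17 had 2.78 and 5.19 scaled TPM after 120 min, against 0.379 and 0.252 at 0 min, and 0.0870 and 0.290 in CA1200 after 120 min.

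In the same stretch C17B7.4 (3339344 to 3340089) had 16.1 and 12.8 scaled TPM after 120 min in the TOP-1 strain, against 1.63 and 0.333 at 0 min. Its log2 change was 3.03 ± 0.41 (adjusted p = 0.00338), the groups did not overlap, and at 60 min it was already called at 2.00 ± 0.41 (adjusted p = 0.0492). C17B7.10 on the opposite strand rose by 2.10 ± 0.28 (adjusted p = 0.00338) and reached 1 TPM in 8 libraries. T28A11.16 had 36.2 and 18.5 scaled TPM after 120 min, against 7.77 and 5.81 at 0 min (adjusted p = 0.0277). F35F10.13 rose by 1.43 (adjusted p = 0.00591), to 2.242 and 1.636 scaled TPM in the TOP-1 strain. In the DPY-27 strain F35F10.13 had 1.314 and 2.404 scaled TPM at 0 min. arrd-21 and arrd-20, named for the arrestin domain, are the pair of neighbouring pseudogenes. In the TOP-1 strain arrd-21 stood at 0.509 and 0.742 scaled TPM at 0 min, 5.44 and 4.48 at 30 min, 5.32 and 4.63 at 60 min, and 5.80 and 3.91 at 120 min, with no overlap between 0 min and any later time. In CA1200 it had 2.73 and 4.64 after 120 min, against 1.197 and 1.16 at 0 min (log2 change 1.07, adjusted p = 0.782, or 0.0656 with the block).

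**Figure D3:**
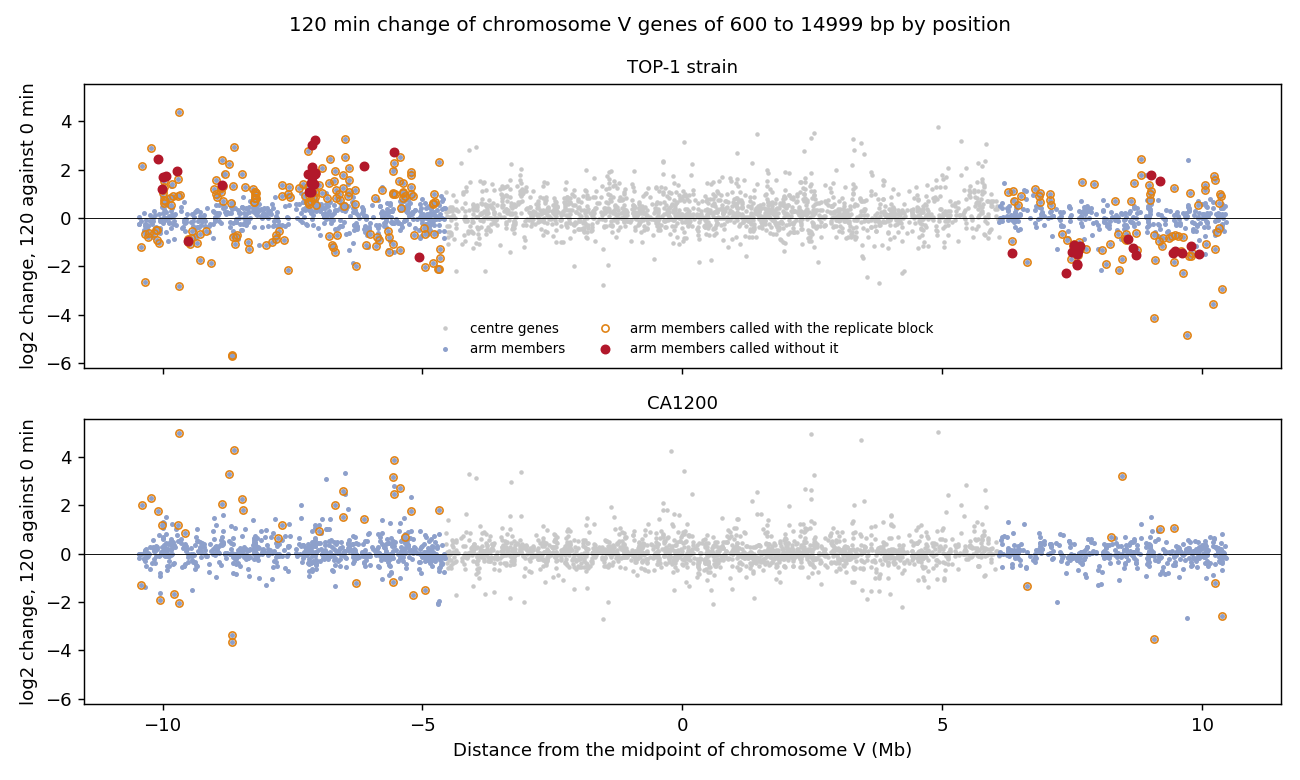
log2 change after 120 min of auxin (y axis) of chromosome V genes by distance from the chromosome's midpoint in Mb (x axis), in the TOP-1 strain (upper) and CA1200 (lower); blue points are arm genes, grey points centre genes, red points arm genes called without the replicate block and orange circles those called with it. Red points above 0 crowd about 7 Mb left of the midpoint, 17 of the 19 red points below 0 lie on the right arm while orange circles below 0 lie on both arms, and CA1200 has no red point.

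Other genes that rose lie elsewhere on the left arm. ZK6.8 had 13.6 and 20.1 scaled TPM after 120 min in the TOP-1 strain, against 2.30 and 2.16 at 0 min, a log2 change of 2.44 ± 0.36 (adjusted p = 0.00591). In CA1200 it had 7.69 and 10.0, against 2.76 and 1.13 (log2 change 1.79, adjusted p = 0.236, or 0.0160 with the block). D2063.1 rose by 2.16 (adjusted p = 0.0190), srh-2, of a chemoreceptor family, by 1.95 (adjusted p = 0.0467), and nhr-58, a nuclear hormone receptor, by 1.73 (adjusted p = 0.0170). On the right arm Y43F8B.9 rose by 1.76 (adjusted p = 0.0464).

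Many genes that fell lie close together on the right arm between 17.84 and 18.12 Mb, a stretch also picked after the changes were seen. It holds 25 arm genes, with a median span of 7442 bp. In the TOP-1 strain at 120 min 19 of them had a change below 0 and 6 above 0, the highest at 0.52. The median log2 change of the 25 was -0.71 at 30 min, -1.05 at 60 min and -1.08 at 120 min. At 120 min 8 were lower without the replicate block and 15 with it, and 0 were higher. Of all tested genes 1.11% and 11.54% were lower in these fits. The 120 min median of the 25 was -0.09 in the TOP-2 strain, -0.08 in the DPY-27 strain and -0.13 in CA1200, again with 0 called. Within it 11 successive tested genes, from dpy-21 to nova-1, each fell by more than 1 on the log2 scale in the TOP-1 strain and passed the test with the block. For lon-8 the sign in the fit without the block, which does not pair the libraries, depended on 1 library. Its change was -1.08, and 0.23 without replicate 1 at 120 min. Within each replicate pair lon-8 fell, from 42.96 to 14.6 and from 152.7 to 95.35 scaled TPM. 10 of them are among the arm genes described here, and the other, prp-6, spans 21492 bp and is too long for the rule.

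ebp-3 and ebp-1 encode microtubule end-binding proteins of the EB1 family and are near neighbours in this stretch. ebp-3 stood in the TOP-1 strain at 31.4 and 36.3 scaled TPM at 0 min, 16.3 and 18.6 at 30 min, 10.2 and 11.3 at 60 min, and 6.99 and 9.44 at 120 min. It had 23.0 and 29.8 in CA1200 after 120 min, against 25.7 and 39.5 at 0 min. The 120 min and 0 min libraries of the TOP-1 strain did not overlap, and those of CA1200 did. The log2 change in the TOP-1 strain was -1.93 ± 0.29 (SE from the fit, n = 2 and 2 in the groups, adjusted p = 0.00591). ebp-1 fell by 1.90 ± 0.29 (adjusted p = 0.00595). The pair are close paralogs, and how shared reads were counted was not stated in any source used here. Y59A8B.25, a gene of 1621 bp between them on the other strand, fell by 1.49 (adjusted p = 0.0295).

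tcc-1 had the largest fall of the arm genes called without the block. It stood at 10.3 and 15.8 scaled TPM after 120 min in the TOP-1 strain, against 48.5 and 86.3 at 0 min, a log2 change of -2.26 ± 0.53 (adjusted p = 0.0454). In CA1200 it had 28.3 and 50.8, against 51.5 and 86.6, a log2 change of -0.80 ± 0.53 (adjusted p = 1.0). gck-3, a kinase that acts with WNK kinase in salt and volume control, had 10.5 and 11.7 scaled TPM after 120 min in the TOP-1 strain, against 33.8 and 28.4 at 0 min. Its log2 change was -1.40 ± 0.27 (adjusted p = 0.0194), and -0.06 in CA1200. dpy-21, which encodes a histone H4 lysine 20 demethylase of the dosage compensation complex, had 8.01 and 8.03, against 27.8 and 28.3, a log2 change that passed only with the block (adjusted p = 7.59e-04, or 0.142 without). In the DPY-27 strain dpy-21 had 15.4 and 22.1 scaled TPM after 120 min, against 17.04 and 18.9 at 0 min.

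**Figure D4:**
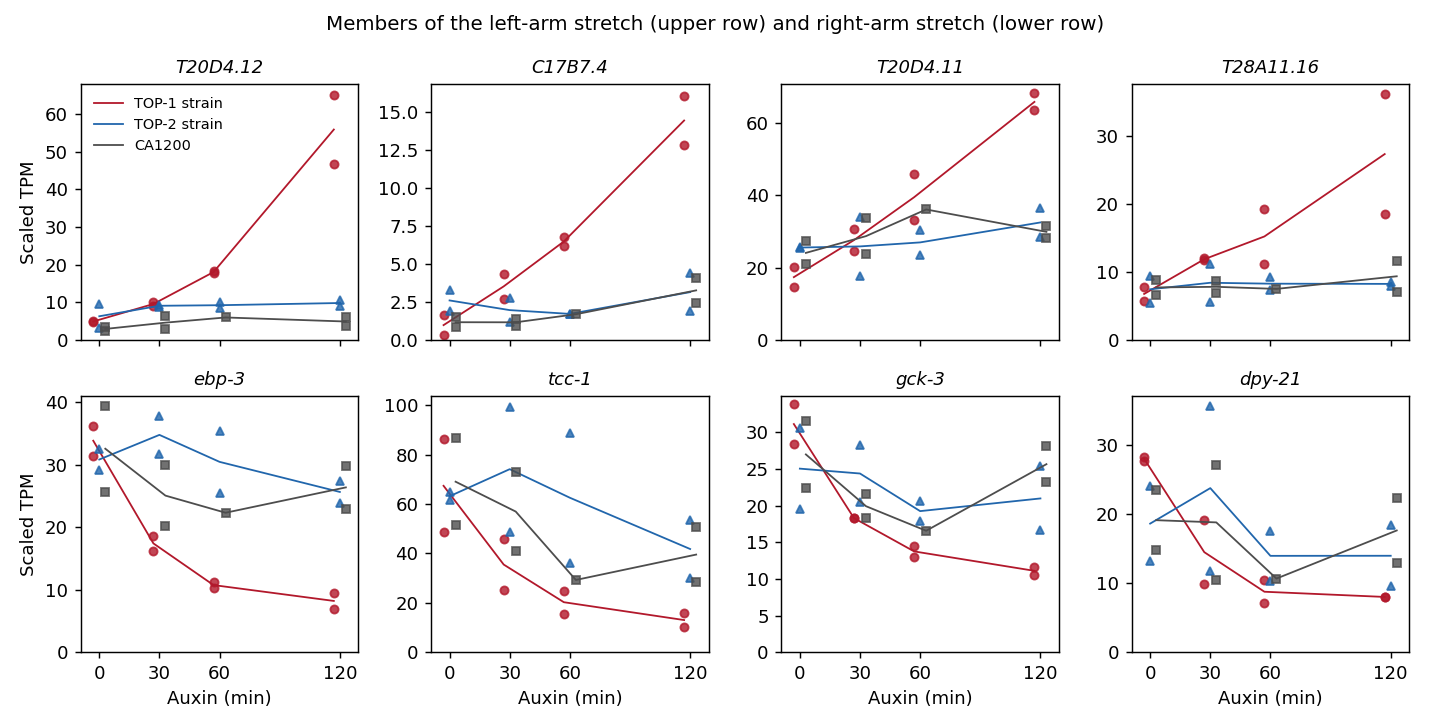
Scaled TPM (y axis, from 0) by minutes of auxin (x axis) of 4 genes of the left-arm stretch (upper row) and 4 of the right-arm stretch (lower row) in the TOP-1 strain (red circles), the TOP-2 strain (blue triangles) and CA1200 (grey squares); each point is a library and lines join group means. T20D4.12 reaches 46.8 and 64.9 and ebp-3 falls to 6.99 and 9.44 in the TOP-1 strain at 120 min.

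Other genes of the right arm also fell in the TOP-1 strain. pph-5, a serine/threonine protein phosphatase, had 11 and 14.05 scaled TPM after 120 min, against 45.8 and 31.03 at 0 min. Its log2 change was -1.53 ± 0.34 (adjusted p = 0.0341), and it was already -1.85 at 60 min (adjusted p = 0.0431). F53H2.3 had 9.47 and 9.82, against 26.5 and 31.97 (adjusted p = 0.0278). fars-2, a mitochondrial phenylalanyl-tRNA synthetase, fell by 1.46 (adjusted p = 0.0231), cand-1, which controls the exchange of cullin ubiquitin ligase adaptors, by 1.44 (adjusted p = 0.0208), fre-1 by 1.44 (adjusted p = 0.0137) and algn-7, an enzyme of N-glycan assembly, by 1.37 (adjusted p = 0.0276). sld-5, a subunit of the GINS replication complex, fell by 1.18 (adjusted p = 0.0341) and bed-1, a zinc-finger gene, by 1.24 (adjusted p = 0.0110). In CA1200 each of these 8 genes had an adjusted p above 0.05 with and without the block. fars-2 and fre-1 overlap other genes, and it was not stated whether the counting used strand. On the left arm C35A11.4 had 0.271 and 0.342 scaled TPM after 120 min in the TOP-1 strain, against 3.37 and 2.70 at 0 min (adjusted p = 0.0138).

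Gene families of chromosome V were described by symbol, in counts and medians, for the 8 families with at least 8 arm genes. Nuclear hormone receptors are transcription factors that respond to small lipid-like molecules. Of their 77 arm genes 65 had a change above 0 after 120 min in the TOP-1 strain, and the median was 0.50, against 0.59 over 52 genes in the centre. Without the block 3 were called, all higher, nhr-58, nhr-202 and nhr-98, and with it 28 rose and 3 fell. Of all tested genes 0.827% were higher and 1.11% lower without the block, and 11.44% and 11.54% with it. In CA1200 the same 77 genes had a median of 0.32 with 65 above 0. There the block gave 3 higher and 1 lower, against 1.29% and 0.953% of all tested genes. Neighbouring nhr-98, nhr-203, nhr-202 and nhr-201 changed by 1.21, 1.16, 1.71 and 1.02 in the TOP-1 strain, while in CA1200 the values were 1.198, 0.68, 1.33 and 1.08. In the TOP-1 strain nhr-202 stood at 0.981 and 2.43 scaled TPM at 0 min, 12.3 and 8.23 at 30 min, 11.7 and 9.02 at 60 min and 9.41 and 6.03 at 120 min. It stood at 2.19 and 1.82 at 0 min and 5.93 and 7.23 at 120 min in CA1200. nhr-202 and nhr-201 overlap on the same strand, so their values are not separate. nhr-114 had 14.9 and 29.7 scaled TPM after 120 min in the TOP-1 strain, against 66.7 and 114.2 at 0 min, and 30.0 and 42.3 in CA1200, against 75.3 and 93.2. It passed the test with the block in both strains (adjusted p = 8.41e-05 and 0.0151), and without the block in neither.

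Cytochrome P450 genes, which oxidise foreign compounds and lipids, had the highest arm median of these 8 families in the TOP-1 strain. After 120 min in the TOP-1 strain 21 of 22 arm genes had a change above 0 and the median was 0.99. The block gave 13 higher and 1 lower, and 0 were called without it. In CA1200 19 of 22 were above 0 with a median of 0.39, 3 of them higher with the block. cyp-34A9 had 71.4 and 16.4 scaled TPM after 120 min in the TOP-1 strain, against 3.44 and 2.08 at 0 min, and 53.5 and 43.4 in CA1200, against 3.48 and 4.23. cyp-42A1 was the member that fell, to 5.09 and 13.2 scaled TPM in the TOP-1 strain, against 11.4 and 71.9 at 0 min (adjusted p = 0.00188 with the block, or 0.364 without).

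UDP-glucuronosyltransferase genes encode enzymes that attach sugars to small molecules. Of their 17 arm genes 14 had a change above 0 in the TOP-1 strain (median 0.40) and 10 in CA1200 (median 0.45). In the centre 22 of 22 were above 0 in the TOP-1 strain (median 0.89) and 17 in CA1200 (median 0.67). 6 adjoining arm genes, ugt-11, ugt-9, ugt-67, ugt-8, ugt-14 and ugt-13, had changes between 1.00 and 2.73 in the TOP-1 strain and between 0.45 and 3.90 in CA1200. ugt-14 was called higher in the TOP-1 strain at 2.73 ± 0.58 (adjusted p = 0.0295), with 11.7 and 6.06 scaled TPM after 120 min, against 0.348 and 0.513 at 0 min. ugt-8 had 29.6 and 32.2 scaled TPM after 120 min in the TOP-1 strain, against 4.38 and 10.5 at 0 min, and 46.1 and 44.2 in CA1200, against 2.19 and 1.999. These genes resemble each other in sequence, so reads shared between them make their values uncertain, and ugt-67 met the TPM rule only with the TOP-1 libraries in which it was high.

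The remaining 5 of these families had lower medians. After 120 min in the TOP-1 strain they were 0.28 over 27 F-box genes, 0.20 over 23 chemoreceptor genes, 0.07 over 31 C-type lectin genes, 0.02 over 10 neuropeptide genes and -0.30 over 10 hedgehog-related genes. By the test with the block 5 F-box genes, 4 chemoreceptor genes and 1 C-type lectin gene rose and 0 of these fell. In the same test 1 neuropeptide gene fell, and of the hedgehog-related genes 1 rose and 2 fell. Each count is out of the family size given above. Of all tested genes 11.44% were higher and 11.54% lower with the block. In CA1200 these 5 medians were 0.19, 0.02, 0.02, 0.15 and 0.50. Centre genes of the same families had medians of 0.38, 0.49, 0.26, 0.24 and -0.19 in the TOP-1 strain. The hedgehog-related genes included grl-5 and grl-1, whose replicates differed more than the times did: grl-5 had 15.1 and 286.8 scaled TPM after 120 min in the TOP-1 strain, against 64.6 and 379.8 at 0 min.

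**Figure D5:**
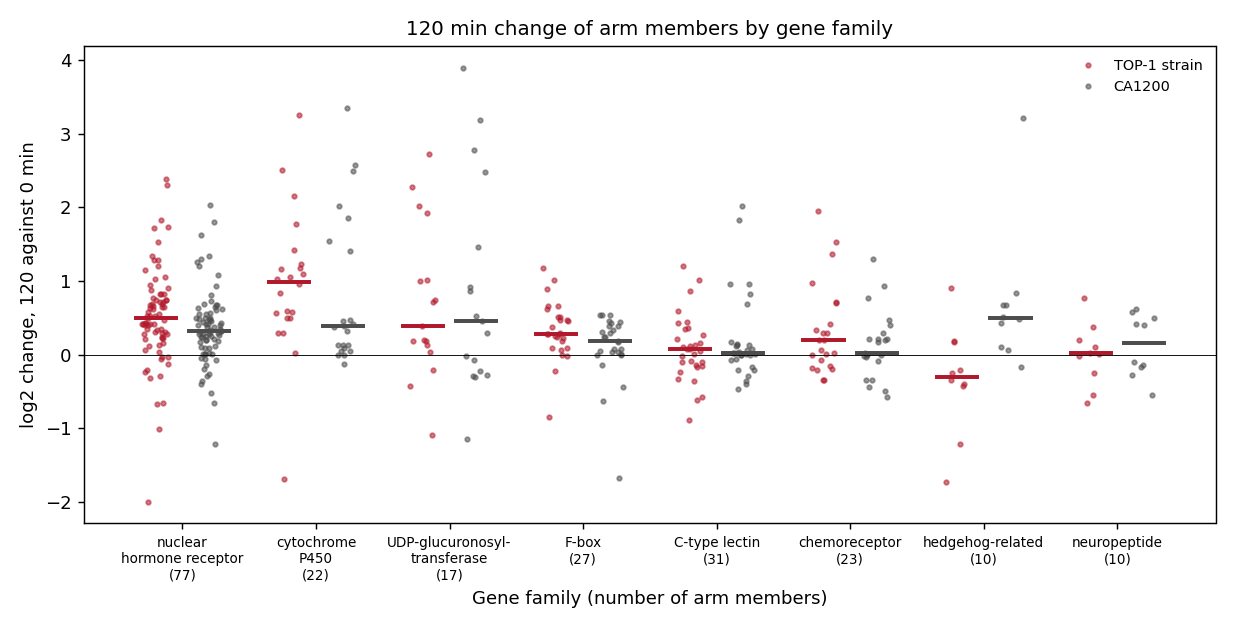
log2 change after 120 min of auxin (y axis) of the arm genes in 8 gene families (x axis, with the number of genes) in the TOP-1 strain (red) and CA1200 (grey); each point is a gene and bars are medians. Among these arm genes the cytochrome P450 genes have the highest median in the TOP-1 strain, at 0.99, against 0.39 in CA1200. Centre genes of that family, not drawn, had 0.87 and 1.31.

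Arm genes also changed in the control strain. limma without the block called 0 of them in CA1200 at 120 min, against 0.00701% of all tested genes. In that fit 92 arm genes had an unadjusted p under 0.05, against 673 of all tested genes. With the block 30 were higher and 14 lower, 4.01% of the arm genes against 2.24% of all tested genes, 1.29% higher and 0.953% lower. Without the 6 libraries that stand apart 6 were higher and 3 lower, against 0.11% and 0.20% of all tested genes. R09E12.9 had 403.8 and 120.5 scaled TPM after 120 min in the TOP-1 strain, against 6.34 and 14.5 at 0 min, and 580.8 and 434.2 in CA1200, against 15.4 and 14.5 (log2 change 4.98 in CA1200, adjusted p = 0.0189 with the block and 1.0 without). T10B5.8 had 21.6 and 26.7 in CA1200, against 0.145 and 0.394. At 30 min 0 arm genes were called without the block, with 59 at an unadjusted p under 0.05, against 424 of all tested genes. With the block ugt-8 and ugt-9 were higher and hmit-1.2, a myo-inositol transporter gene, and nhr-114 lower. These are 0.365% of the arm genes against 0.217% of all tested genes, 0.0911% higher and 0.126% lower. At 60 min 0 were called in either fit, with 56 at an unadjusted p under 0.05 without the block.

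hsp-16.41 and hsp-16.2 encode small heat-shock proteins, stand back to back, overlap srt-41 and have close copies, so their values are uncertain. hsp-16.41 stood in the TOP-1 strain at 1409 and 1113 scaled TPM at 0 min, 2075 and 873.6 at 30 min, 1145 and 318.7 at 60 min, and 49.8 and 11.04 at 120 min. In CA1200 it stood at 476 and 712 at 0 min, 2118 and 625.6 at 30 min, 908.8 in the single library at 60 min, and 118 and 16.95 at 120 min. Low values were thus seen at 120 min and not at 30 min, where replicate 1 was above and replicate 2 below its 0 min library in both strains. At 120 min both genes passed the test as lower in both strains with the block (adjusted p = 4.80e-04 in the TOP-1 strain and 0.0349 in CA1200 for hsp-16.41), and without it in neither (0.311 and 1.0). The co-chaperone genes fkb-6, sti-1 and dnj-19, named here after their values were seen, fell by 2.92, 2.81 and 2.01 in the TOP-1 strain and by 2.59, 2.04 and 1.51 in CA1200, called with the block in both strains, while without it their adjusted p lay above 0.05. In the TOP-2 strain replicate 1, which stands apart, had 2.85, 197.3, 90.31 and 2.193 scaled TPM of hsp-16.41 at 0, 30, 60 and 120 min, and replicate 2 had 984.5, 5729, 2520 and 333.1.

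In the TOP-2 strain limma called 0 arm genes at 30, 60 and 120 min, with and without the block, against 0 of all tested genes without it and 0.021%, 0.00701% and 0 with it. 25, 22 and 21 arm genes had an unadjusted p under 0.05 without the block, and 122, 129 and 120 with it. Without the 6 libraries that stand apart each TOP-2 group holds 1 library, so calls from that fit are not read. In the DPY-27 strain 2 arm genes were higher at 120 min and 0 lower, 0.182% against 0.0491% of all tested genes, and with the block 5 were higher, 0.456% against 0.126%. Those called without the block were clec-9, of the C-type lectins, and cyp-33D3. clec-9 had 3.85 and 4.93 scaled TPM after 120 min in the DPY-27 strain, and at 0 min it was listed at 0 in replicate 1 and had 0.0414 in replicate 2. A fit without 1 DPY-27 library cannot show whether these calls rest on 1 library, since the mixed-stage term then leaves 1 library against 1. cyp-33D3 had 2.44 and 1.76, against 0.916 and 0.0662. Both reached 1 TPM in few libraries, 3 and 4 of 27, and clec-9 met the TPM rule only with the 120 min DPY-27 libraries in which it was high, so its call is not independent of the rule. The same holds for 3 of the 5 called with the block, and these counts are read as a description only.

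A direct test set the TOP-1 change against the CA1200 change at 120 min. Without the block it called 0 arm genes and 0 of all tested genes. In that fit 63 arm genes had an unadjusted p under 0.05, against 463 of all tested genes. With the block 14 arm genes had a higher and 20 a lower change in the TOP-1 strain than in CA1200, 3.10% of the arm genes against 1.75% of all tested genes, 0.554% higher and 1.2% lower. Those with the largest differences were T20D4.12, T28A11.19 and T20D4.17 upward, at 2.67, 2.38 and 1.81, and mlt-11, Y60A3A.19 and sec-23 downward, at -2.66, -1.72 and -1.67. mlt-11 encodes a protease inhibitor needed for molting, and its TOP-1 replicates differed widely in level, with 2.23 and 30.4 scaled TPM after 120 min, against 30.7 and 437 at 0 min. sec-23, a COPII coat subunit, had 7.59 and 20.8, against 42.5 and 101. The same test called 0 arm genes for the TOP-2 and the DPY-27 strains with and without the block. Without it 5 and 19 arm genes had an unadjusted p under 0.05, against 108 and 133 of all tested genes.

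In the authors' deposited table for the TOP-1 strain at 120 against 0 min 41 of the 971 arm genes with an adjusted p were higher and 32 lower, and 62 higher and 8 lower of 1553 centre genes, against 1.49% higher and 2.16% lower of all 13176 genes with an adjusted p there. The median log2 fold change in the authors' deposited table was 0.16 on the arms and 0.25 in the centre. At 60 min the authors' deposited table had 28 arm genes higher and 17 lower, against 0.904% and 1.61% of all genes, and at 30 min 10 and 4, against 0.243% and 0.336%. For the TOP-2 strain the authors' deposited tables against 0 min had 0 arm genes at each time.

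The genes nearest the limits of the rule were as follows. C04E6.7, just inside the left limit, changed by 0.41 in the TOP-1 strain at 120 min and C04E6.13, just outside, by 1.07. Y32B12B.4, just inside the right limit, changed by -0.17 and Y32B12B.2, just outside, by -0.80. At the upper limit of span arid-1, 14850 bp long, changed by -0.79 and ints-5, 15153 bp long and not a member, by -1.11. At the lower limit C14C6.12 of 608 bp changed by 0.86 and dct-14 of 597 bp by -0.07. F40C5.2 met the TPM rule in 2 libraries, at 1.01 TPM in the second highest, and clec-27 missed it at 0.994 TPM.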

How the data were processed

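Gene tables of 27 libraries were used. Per the file headers they hold FPKM and TPM computed by the authors for each gene, and TPM was used for all levels. FPKM, as deposited, served only to estimate depth from its steps of 1 fragment. In the authors' deposited comparison tables log2 fold changes and adjusted p-values were read as given. Tools listed, per the submitters' processing notes, are Cufflinks 2.2.1, DESeq2 1.30.0, HISAT2 2.2.1, HTSeq 0.13.5 and CASAVA 1.8. Coordinates are those of the files, with a build not given in the sources used here. Symbols came from the WBcel235 annotation by sequence name, with 19890 of 20390 genes matched.

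TPM was scaled by median ratios over 12832 genes, and limma 3.58.1 in R 4.3.3 with a mean-variance trend was fitted to log2(scaled TPM + 1) of 14271 genes with 1 TPM in at least 2 libraries. The model had a mean per group and a term for the mixed-stage libraries, 12 residual degrees of freedom, and Benjamini-Hochberg adjustment over all genes. A lone CA1200 library at 60 min is assumed to vary like the others. The alternative with a replicate block has 9 residual degrees of freedom. Libraries of the same strain and number deviated together, with correlations of 0.378 to 0.904, and per the labels' protocols worms of 1 batch were split between plates with and without auxin, so the numbers pair the libraries. The DPY-27 libraries of both stages carry the same number in the labels and were numbered here. The fit without the block was also run on simulated data with independent noise and a capped spread per gene. Libraries of 1 replicate series did not deviate together there. The simulation thus cannot show how well the calls hold in the real libraries.

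The members and gene families were chosen with earlier results of these data known. Genes were named by a rule: those with the largest called changes in each comparison, the 5 most abundant, the leading genes of families with at least 8 members, runs of at least 4 neighbours that changed by more than 1, and those at the limits of the member rule. Lists got no test. Sequences were not used here.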

Additional observations from a re-analysis of the deposited data

Results flagged for a closer look

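2 of the named genes moved in opposite directions in the TOP-1 strain and in CA1200 after 120 min of auxin, in every replicate pair. srw-85, a chemoreceptor gene, had 68.1 and 46.4 scaled TPM after 120 min in the TOP-1 strain, against 31.9 and 14.1 at 0 min, and 14.5 and 21.1 in CA1200, against 19.97 and 25.5. Its log2 change was 1.36 in the TOP-1 strain and -0.35 in CA1200, and limma's test of the difference gave an adjusted p of 0.00687 with the replicate block and 1.0 without it. rps-27, of the small ribosomal subunit, changed by 0.19 in the TOP-1 strain, with 0.13 and 0.24 in the pairs, and by -0.23 in CA1200, with -0.01 and -0.45. For rps-27 the difference did not pass the test (adjusted p = 0.766 with the block and 1.0 without it). Groups of at most 2 libraries allowed no search for single outlying libraries.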

How the results depend on the processing

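The direction of the arm minus centre difference in the TOP-1 strain was negative at every time and under every alternative run, though its size was not. At 30 min it was -0.12 with a pseudocount of 0.1, -0.036 with a pseudocount of 5, -0.094 with a filter at 5 TPM, -0.025 with no filter, -0.075 within level classes, -0.082 with means, and -0.12 on chromosomes I to IV. At 60 min it was -0.16 and -0.059 with the pseudocounts of 0.1 and 5, and -0.044 with no filter. At 120 min it was -0.12 and -0.053 with these pseudocounts, -0.13 with the filter at 5 TPM, -0.052 with no filter, -0.063 within span classes, -0.11 within level classes, -0.16 with means, and -0.15 on chromosomes I to IV. In the TOP-2 strain at 120 min it was -0.061 and -0.025 with the pseudocounts, -0.0457 with the filter at 5 TPM, 0.0 with no filter, -0.040 without the 6 libraries that stand apart, -0.027 within span classes, -0.040 with means and -0.030 on chromosomes I to IV. In the DPY-27 strain it was 0.0 with no filter, -0.032 within span classes, -0.030 within level classes and -0.033 with means. The TOP-1 minus CA1200 difference was -0.055 with no filter. The cause was not tested in any of these.

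The replicate block called 58, 200 and 299 arm genes in the TOP-1 strain at 30, 60 and 120 min, 5 in the DPY-27 strain, 4 and 44 in CA1200 at 30 and 120 min, and 34 in the TOP-1 minus CA1200 test. It made 47 named results pass the threshold and changed the call of no other. With TPM unscaled the TOP-1 strain had 0 and 2 calls at 60 and 120 min and the DPY-27 strain 1, and 39 of the 40 named calls were lost. Leaving TPM unscaled moved the median of all genes by -0.22 in the TOP-2 strain at 30 min and by -0.11 in the TOP-1 minus CA1200 test. A pseudocount of 0.1 left 0 calls in the DPY-27 strain, and a pseudocount of 5 left 0 at 60 min for TOP-1. The filter at 5 TPM left 0 in the DPY-27 strain, while no filter gave 4 there and 1 for TOP-1 at 60 min. With a strain's own libraries alone there was 1 call at 30 min and 1 at 60 min in the TOP-1 strain, 0 in the DPY-27 strain and 4 in CA1200 at 120 min. Leaving out the 6 libraries that stand apart was an alternative chosen after seeing the data. The TOP-1 strain then had 31 and 91 calls at 60 and 120 min, against 1.52% and 4.41% of all tested genes. CA1200 had 1 and 9 at 30 and 120 min, against 0.042% and 0.32%. Each TOP-2 group and CA1200 at 60 min then hold 1 library, so their calls are not read.

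Leaving out single replicates gave arm minus centre differences of -0.085 to -0.071, -0.13 to -0.10 and -0.13 to -0.055 in the TOP-1 strain at 30, 60 and 120 min. The ranges were -0.068 to 0.15, -0.071 to 0.14 and -0.14 to 0.079 in the TOP-2 strain, -0.037 to -0.021 in the DPY-27 strain, and -0.014 to 0.070, -0.081 to 0.018 and -0.012 to 0.062 in CA1200. Against the CA1200 change they were -0.19 to -0.13 for the TOP-1 strain, -0.20 to 0.041 for the TOP-2 strain and -0.10 to -0.029 for the DPY-27 strain. Counts were 3 to 21 for TOP-1 at 120 min and 0 to 0 in the other comparisons. Without 1 TOP-1 library the 120 min change of 10 genes in the fit without the block could take either sign. It ranged from -0.12 to 0.49 for asp-1, -0.75 to 0.042 for dct-16, -0.081 to 0.25 for hpo-18, -0.15 to 0.094 for nhr-70 (0.022), -0.76 to 0.29 for clec-50 (0.11), -0.59 to 1.35 for nlp-27 (-0.35), -3.29 to 0.86 for grl-5 (0.055), -2.06 to 1.54 for grl-1 (0.053), -0.048 to 2.08 for ugt-11 and -2.40 to 0.23 for lon-8, where values in parentheses are for a second library whose loss turned the sign. That fit does not pair the libraries. In both replicate pairs lon-8, grl-5, dct-16 and clec-50 fell and nlp-27 and ugt-11 rose, while the pairs of the other genes differed in sign.

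Most groups had 2 libraries and CA1200 at 60 min had 1, which limits every test. Genes near 1 TPM rest on few fragments, most so in the 6 shallow libraries, and fold changes of genes at a few TPM are understated by the pseudocount.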

Other observations

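Along chromosome V in steps of 1 Mb, the arm genes had their highest median change in the TOP-1 strain at 120 min in the window from 3 to 4 Mb, at 0.51 over 135 genes, of which 49 were higher and 5 lower with the replicate block. The lowest median was in the window from 18 to 19 Mb, at -0.11 over 83 genes, with 3 higher and 18 lower. Of all tested genes 11.44% were higher and 11.54% lower with the block. The outer windows of the left arm, from 0 to 1 and from 1 to 2 Mb, had medians of -0.06 and 0.00, below each of the windows between 6 and 16 Mb, which held 0.11 to 0.27.

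Arm genes named after their values were seen included alh-5, an aldehyde dehydrogenase, and swt-7, a sugar transporter of the SWEET family, which were higher with the block in both strains. alh-5 had 76.6 and 32.8 scaled TPM after 120 min in the TOP-1 strain, against 17.8 and 9.91 at 0 min, and 60.7 and 78.7 in CA1200, against 12.2 and 15.5. swt-7 had 297 and 123 in the TOP-1 strain, against 35.9 and 29.0, and 298 and 158 in CA1200, against 30.6 and 32.8. Y43F8B.2, one of the most abundant genes of the right arm, had 56.0 and 54.2 scaled TPM after 120 min in the TOP-1 strain, against 1152 and 821 at 0 min, and 76.1 and 44.5 in CA1200, against 667 and 707. It overlaps Y43F8B.3, and passed the test with the block in both strains (adjusted p = 0.00405 and 0.0465). What these 3 genes share was not tested.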
